A study of Mus musculus with 8 samples.

Results

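Islets from 4 Irs2-/- samples were compared with islets from 4 wild-type (WT) samples, with drinking-water treatment as a second factor, so that the comparison took in 8 of the 8 arrays of the study. Irs2 encodes insulin receptor substrate 2, an adaptor that carries the signal from the insulin and IGF-1 receptors to PI3 kinase and AKT. In mouse beta cells this branch is known to sustain cell mass and function, and male mice without Irs2 are known to become diabetic through insulin resistance and beta cell failure. Sodium tungstate is an oral compound known to lower blood glucose in diabetic rodents.

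All 8 samples were pancreatic islets of male mice on a C57Bl/6 background, 10 weeks old at the start of 21 days of treatment and 13 weeks old at its end. The groups were Irs2-/- given sodium tungstate in the drinking water, Irs2-/- given distilled water, WT given sodium tungstate and WT given distilled water, with 2 independent samples each. The tungstate concentration was given as 2 mg/ml in the study's design text and as 2 mg/dl in the sample labels, so the dose is not settled. The labels do not tell single mice from pooled ones, and p-values therefore measure the spread between these samples, which may be in part technical. Each sample was hybridised to a single-colour array, and values are log2 RMA expression, a background-corrected and normalised summary of the probes of each gene, on which a difference of 1 is a 2-fold change. Each gene is represented by its brightest probe set, and 13369 genes with a mean of at least 5.27 over the 8 arrays were tested. The islet hormones were abundant on every array: Ins2 lay between 14.72 and 14.75 and Gcg between 14.15 and 14.39.

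Irs2 itself separated the genotypes. Irs2 read 4.78 and 4.86 in tungstate-treated and 4.54 and 4.89 in untreated Irs2-/- islets, against 7.89 and 7.61 in treated and 7.91 and 7.73 in untreated WT islets. All 4 Irs2-/- arrays lay under the level of 5.27 used as the lower limit, and all 4 WT arrays lay well above it. The difference was -3.02 ± 0.11 (SE, limma adjusted p = 3.25e-05), or 8.09-fold lower in Irs2-/-, a size that is not exact because the Irs2-/- values lie under that limit. The sources used here do not place this probe set inside or outside the deletion, and a probe outside it would not check the labels.

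The genotype difference was broad. At an adjusted p under 0.05 in limma, 2950 of 13369 genes were called, which is 22.1% of those tested. Of these, 1459 (10.9%) were higher and 1491 (11.2%) were lower in Irs2-/- islets. All 4 arrays of one genotype lay beyond all 4 of the other for 977 of the higher genes (7.31% of those tested) and for 1306 of the lower genes (9.77%). A further 667 called genes overlapped between genotypes, and 925 genes were separated without being called. The no-overlap rule was applied to the same arrays as the test, so it describes these genes and adds no support. At its edge, Npdc1 was just inside among higher genes and Pnp just outside, while Pex26 was just inside among lower genes and Taf3 just outside.

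Large differences ran mostly upwards. At 2-fold or more, 324 called genes were higher and 103 lower, and 202 and 101 of these did not overlap. Among called genes without overlap, the median difference was 0.59 for higher and -0.48 for lower genes, against -0.01 over all genes tested. Leaving out 1 array lowered the count of 2950 by more than 1.5 times in 3 cases, to 1389 without WT tungstate replicate 1, to 1427 without WT tungstate replicate 2 and to 1905 without WT untreated replicate 2. The count without overlap, 2283 in the full set, was then 1245 and 1308 without each of the treated WT arrays.

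The arrays differed in exocrine and other non-endocrine RNA. Their first principal component, 61.1% of the variance, ran from the untreated Irs2-/- arrays (35.0 and 46.3) through the treated Irs2-/- arrays (2.7 and 12.9) to the WT arrays (-29.8 to -15.7). The mean level of 25 acinar cell markers was 10.11 to 11.51 on Irs2-/- arrays and 7.89 to 10.78 on WT arrays, with the lowest and the highest WT value both in the untreated group. With that level as a covariate in limma, 1571 genes were called, 1033 higher and 538 lower. The 18S rRNA control read 10.63 to 11.92 on Irs2-/- arrays and 11.75 to 12.70 on WT arrays, and its part in the results was not tested. In whole islets, a lower share of one cell type and less RNA per cell of that type cannot be told apart.

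**Figure D1:**
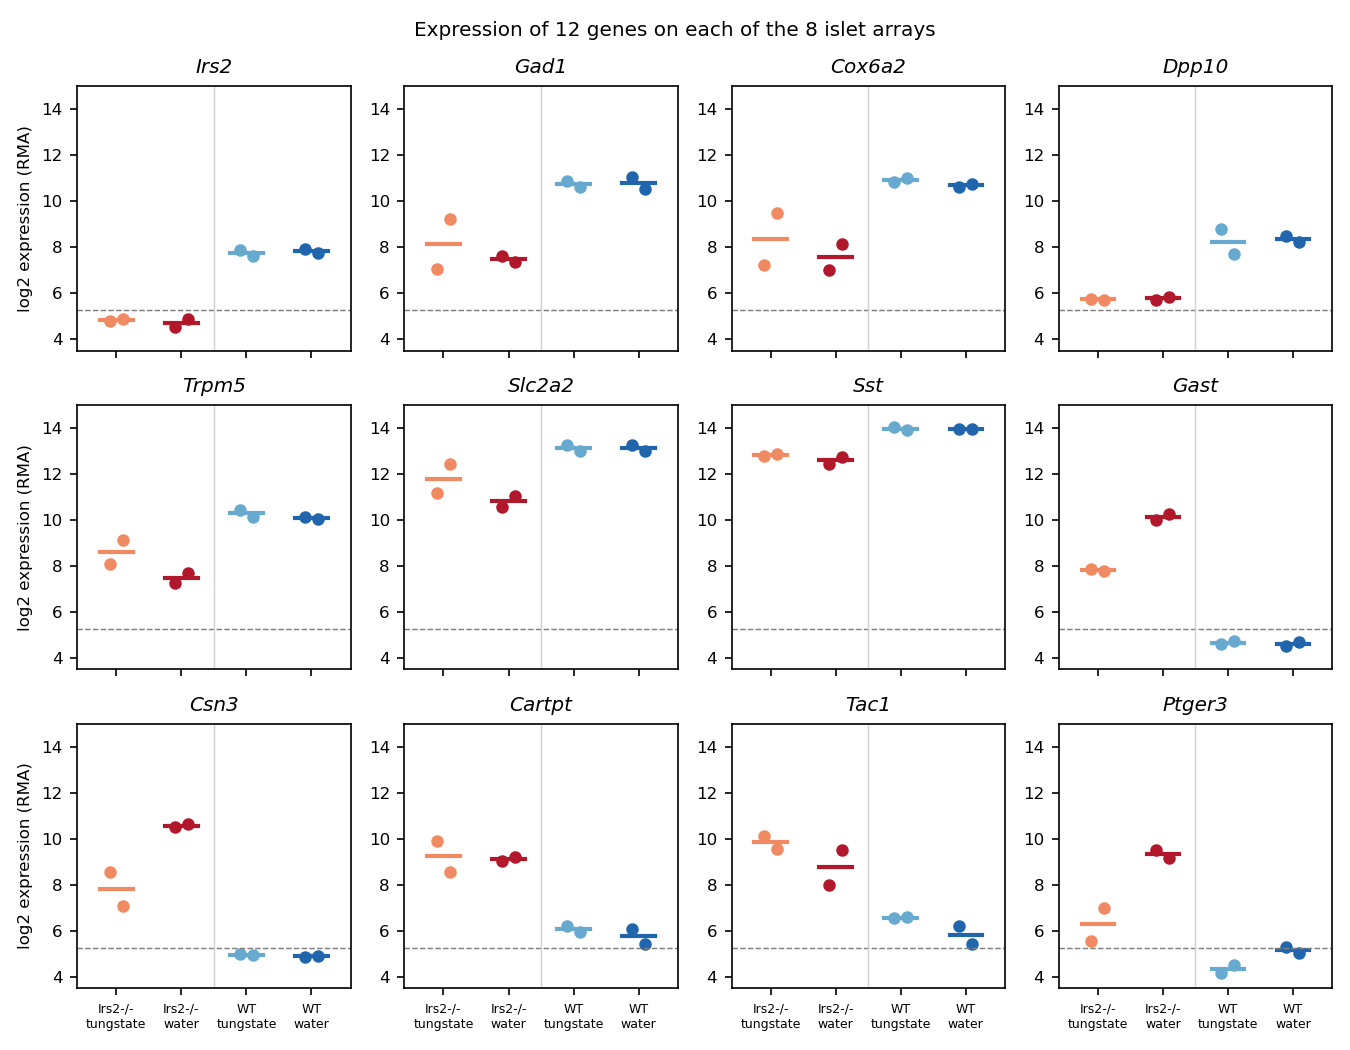
Log2 expression of 12 genes (vertical axis, RMA units) on each array, with Irs2-/- groups left of WT groups, points for single arrays, short lines for group means of 2 arrays and a dashed line at the lower limit of 5.27. In each panel the 4 Irs2-/- points lie wholly above or wholly below the 4 WT points.

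Genes of glucose sensing and insulin secretion were mostly lower in Irs2-/- islets. Of 23 tested, 13 fell, 3 rose and 7 did not pass, with a median difference of -0.64 against -0.01 over all genes. Of those that fell, 12 showed no overlap. By comparison, 11.2% of all genes tested fell, 9.77% without overlap, and 10.9% rose. Slc2a2, which encodes the glucose transporter GLUT2 of rodent beta cells, read 11.17 and 12.43 in treated and 10.58 and 11.03 in untreated Irs2-/- islets, against 13.26 and 13.00 in treated and 13.24 and 12.97 in untreated WT islets. The WT arrays were tightly grouped, and the nearest Irs2-/- array was the treated replicate 2. Its difference was -1.82 ± 0.26 (limma adjusted p = 0.00374), 3.53-fold lower. Trpm5, a calcium-activated cation channel of the beta cell membrane, read 8.07 and 9.13 in treated and 7.28 and 7.71 in untreated Irs2-/- islets, against 10.45 and 10.12 in treated and 10.10 and 10.03 in untreated WT islets. Untreated Irs2-/- islets were lowest, the treated ones lay between, and the genotypes did not overlap. Trpm5 fell by 2.13 ± 0.22 (SE, limma adjusted p = 0.00148).

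Other genes of metabolism, secretion and incretin sensing fell as well, while some rose or did not pass. Pcx, the pyruvate carboxylase that feeds the citric acid cycle, fell by 1.42 ± 0.10 (SE), and it averaged 8.02 ± 0.52 in Irs2-/- and 9.44 ± 0.13 in WT islets (SD, n = 4 each). Sytl4, which encodes the granule-docking protein granuphilin, fell by 1.71 ± 0.22, and Ucn3, the peptide urocortin 3 of mature mouse beta cells, fell by 1.62 ± 0.22. The zinc transporter of insulin granules, Slc30a8, fell by 1.09 ± 0.16. Both incretin receptors fell, Glp1r by 1.62 ± 0.24 and Gipr by 0.90 ± 0.13. Among the 3 that rose were the prohormone convertase Pcsk1 (0.51 ± 0.10) and the granule protein Chgb (0.43 ± 0.09), whose calls were lost with the acinar level as covariate for Pcsk1 and without either treated WT array for Chgb. The subunits of the ATP-sensitive potassium channel did not pass, with -0.14 ± 0.09 for Abcc8 and -0.05 ± 0.09 for Kcnj11. Without both untreated replicate 1 arrays, a setting chosen after seeing the data, 9 genes of the list were called instead of 16.

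Of 24 tested islet transcription factors, 7 fell, 1 rose and 16 did not pass, with a median of -0.24. Over all genes tested, 11.2% fell and 10.9% rose. Nkx6-1, a homeobox factor required for beta cell identity, read 9.76 and 10.29 in treated and 9.42 and 9.76 in untreated Irs2-/- islets, against 10.88 and 10.82 in treated and 10.87 and 10.72 in untreated WT islets. The genotypes were separated, with the treated replicate 2 again the Irs2-/- array nearest WT. Nkx6-1 fell by 1.02 ± 0.14 (SE, limma adjusted p = 0.00316). Smaller falls were measured for Foxa2 (-0.59 ± 0.09), a forkhead factor of endoderm, Neurod1 (-0.59 ± 0.11), a basic helix-loop-helix factor of endocrine cells, and Pdx1 (-0.51 ± 0.11), a regulator of the insulin gene. The Pdx1 call (limma adjusted p = 0.017) was lost without WT untreated replicate 2 and without either treated WT array. Plut, a noncoding RNA transcribed next to Pdx1, fell by 2.16 ± 0.41 (limma adjusted p = 0.0104), and it lost its call with trended and robust variance moderation. Bach2, a leucine zipper repressor best known in lymphocytes, was the only factor of the list that rose, by 1.82 ± 0.49, and its call was lost without any 1 of 5 arrays. The count of 8 was 5 without WT untreated replicate 2, 5 without WT tungstate replicate 1, and 3 without both untreated replicate 1 arrays.

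Among 21 tested hormone and neuropeptide genes, 12 rose, 2 fell and 7 did not pass, and the median was 1.12. Of those that rose, 11 did not overlap between genotypes. Among all genes tested, 10.9% rose, 7.31% without overlap, and 11.2% fell. Gast, the gene for the stomach hormone gastrin that is made in fetal islets, read 7.85 and 7.76 in treated and 10.00 and 10.26 in untreated Irs2-/- islets, against 4.60 and 4.72 in treated and 4.53 and 4.69 in untreated WT islets. All WT values lay under 5.27, so the size of the difference is not exact. It was 4.33 ± 0.09 (SE, limma adjusted p = 8.89e-07). Cartpt, which encodes the CART peptide of islets and brain, read 9.91 and 8.56 in treated and 9.02 and 9.22 in untreated Irs2-/- islets, against 6.21 and 5.95 in treated and 6.09 and 5.44 in untreated WT islets. Every Irs2-/- array was at least 2.35 above the highest WT array. Cartpt rose by 3.26 ± 0.28 (limma adjusted p = 0.000837).

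Peptides known as nerve transmitters were among those that rose. Tac1, the precursor of substance P, read 10.13 and 9.58 in treated and 8.01 and 9.52 in untreated Irs2-/- islets, against 6.56 and 6.60 in treated and 6.19 and 5.42 in untreated WT islets. The groups did not overlap, and the difference was 3.12 ± 0.33. Vip, the vasoactive intestinal peptide of pancreatic nerves, read 11.68 and 11.16 in treated and 10.23 and 11.19 in untreated Irs2-/- islets, against 8.84 and 8.34 in treated and 9.12 and 6.73 in untreated WT islets. The spread among untreated WT arrays was wide, but no WT array reached the lowest Irs2-/- one, and the difference was 2.81 ± 0.48. Grp, gastrin-releasing peptide, rose by 3.19 ± 0.37, and Vgf, a granin-like secretory protein, rose by 2.56 ± 0.11. Pdyn (prodynorphin, 2.44 ± 0.21), Gal (galanin, 2.00 ± 0.32), Ghrl (ghrelin, 1.45 ± 0.27) and Nucb2 (the nesfatin precursor, 1.12 ± 0.11) rose as well.

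Among the main islet hormones, 1 fell and 4 did not pass. Sst, the delta cell hormone somatostatin, read 12.79 and 12.88 in treated and 12.44 and 12.75 in untreated Irs2-/- islets, against 14.02 and 13.93 in treated and 13.95 and 13.95 in untreated WT islets. The 4 WT arrays were almost level, all above every Irs2-/- array, and Sst fell by 1.24 ± 0.09 (SE, limma adjusted p = 0.00049). The other hormone that fell was Ucn3. The adjusted p was 0.887 for Ins2 (-0.02 ± 0.07), 0.657 for Gcg, the glucagon gene (-0.06 ± 0.08), and 0.159 for Ppy, pancreatic polypeptide (-0.18 ± 0.08). Iapp, the amylin that is secreted with insulin, differed by 0.02 ± 0.07 and did not pass. Ins2, Iapp, Gcg and Ppy lie at or near the top of the scale on all 8 arrays, where a change may not be measurable. These values therefore do not show that their RNA was level. WT Sst, at 13.93 to 14.02, lies close to these levels, so the size of its fall may not be exact.

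Promoter sequences are shown for Cartpt, Vip and Sst because these hormone genes, which moved in opposite directions, share the motif of the cAMP response element, the sequence bound by CREB. The motif searched was TGACGTC on either strand (GACGTCA on the other), both of which overlap in TGACGTCA, in the 250 bases before the gene start. It was found in any promoter of 4 of the 17 tested hormone genes that have a promoter in the table. Counted per promoter, 914 of 32851 promoters overall held it (2.78%). A gene may have several promoters, so the share per gene and the share per promoter are not alike. The fourth was Adcyap1, the precursor of the neuropeptide PACAP, which rose by 0.53 ± 0.12 with all WT values under 5.27, and its call was lost without WT untreated replicate 2 and without either treated WT array. The sequences are from RefSeq on build GRCm38.p6, cover 120 bases before the gene start, run 5′ to 3′ on the gene's strand, and carry the motif in capitals. They lie at chr13:99900684-99900803 (minus strand) for Cartpt, chr10:5639098-5639217 (plus strand) for Vip and chr16:23890845-23890964 (minus strand) for Sst.
Cartpt: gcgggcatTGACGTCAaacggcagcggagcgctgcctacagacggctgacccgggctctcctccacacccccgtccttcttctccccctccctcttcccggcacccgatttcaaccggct
Vip: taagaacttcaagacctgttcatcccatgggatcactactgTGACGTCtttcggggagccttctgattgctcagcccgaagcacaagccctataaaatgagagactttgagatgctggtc
Sst: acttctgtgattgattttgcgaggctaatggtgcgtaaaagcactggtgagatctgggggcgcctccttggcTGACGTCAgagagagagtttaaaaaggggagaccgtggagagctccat
The motif starts 112 bases before the gene start in Cartpt, 79 in Vip and 48 in Sst. A match describes these letters and was not tested as a binding site.

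The 15 largest falls among called genes without overlap took in Irs2, Slc2a2, Trpm5 and Plut, described above, and enzyme, channel and adhesion genes. Gad1, the enzyme that makes GABA from glutamate, read 7.05 and 9.24 in treated and 7.60 and 7.33 in untreated Irs2-/- islets, against 10.85 and 10.61 in treated and 11.05 and 10.52 in untreated WT islets. Treated replicate 2 stood above the other 3 Irs2-/- arrays and still below every WT array, and the difference was -2.95 ± 0.41 (SE, limma adjusted p = 0.0036). Dpp10, an auxiliary protein of Kv4 potassium channels, read 5.76 and 5.72 in treated and 5.71 and 5.83 in untreated Irs2-/- islets, against 8.77 and 7.71 in treated and 8.47 and 8.24 in untreated WT islets. Here the 4 Irs2-/- arrays were level and the difference was -2.54 ± 0.21. Cox6a2, the muscle-type subunit 6A2 of cytochrome c oxidase, fell by 2.86 ± 0.46. Mcoln3, an endolysosomal cation channel, fell by 2.06 ± 0.29, and Pcdh15, a protocadherin known from inner ear hair cells, fell by 1.90 ± 0.17, with 3 Irs2-/- arrays under 5.27 for each. Cttnbp2 (a cortactin-binding protein), Aard, Prss53 and Adam32 (a serine protease and a member of the ADAM family), T2 and the unnamed 4931431B13Rik made up the rest, between -2.31 and -1.86. Second probe sets gave smaller sizes for some of them, -0.24 for Cttnbp2 and -0.06 and -0.39 for Pcdh15.

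Among the 15 largest rises, those outside the hormone and Reg lists included genes of a milk protein, receptors and a lipid droplet protein. Csn3, the milk protein kappa-casein, read 8.56 and 7.08 in treated and 10.52 and 10.62 in untreated Irs2-/- islets, against 4.99 and 4.94 in treated and 4.86 and 4.91 in untreated WT islets. WT arrays were level under 5.27, so the size of 4.27 ± 0.27 (SE, limma adjusted p = 0.000297) is not exact. Ptger3, the prostaglandin E2 receptor EP3, read 5.58 and 6.98 in treated and 9.50 and 9.17 in untreated Irs2-/- islets, against 4.18 and 4.51 in treated and 5.28 and 5.02 in untreated WT islets. Treated replicate 1 was only 0.30 above the highest WT array, and the difference was 3.06 ± 0.28, with 3 WT arrays under 5.27. Cidea, a lipid droplet fusion protein, rose by 3.34 ± 0.40 and Sorcs1, a sorting receptor, by 2.99 ± 0.29, and neither size is exact, since the WT values of both lie under 5.27. The unnamed 6330403K07Rik rose by 3.66 ± 0.29. Second probe sets of Csn3, Ptger3 and Tac1 lay near or under 5.27 and gave 0.04, 0.13 and 0.01.

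Amino acid handling changed in both directions. Of 17 tested genes of GABA and serotonin synthesis and amino acid transport, 4 rose, 8 fell and 5 did not pass, with a median of -0.50. The shares over all genes tested were 10.9% that rose and 11.2% that fell. Slc38a5, a glutamine transporter, read 10.28 and 9.15 in treated and 10.83 and 10.88 in untreated Irs2-/- islets, against 7.22 and 6.40 in treated and 7.07 and 7.14 in untreated WT islets. The gap between genotypes was 1.93 and the difference 3.33 ± 0.26 (SE, limma adjusted p = 0.000592). Slc1a5, another glutamine carrier, rose by 0.78 ± 0.09. The heavy and light chains of the leucine carrier, Slc3a2 and Slc7a5, fell by 0.50 ± 0.10 and 0.63 ± 0.08. The arginine transporter Slc7a2 fell by 0.75 ± 0.11, the amine-degrading enzyme Maob by 1.50 ± 0.21 and the decarboxylase Ddc, which makes serotonin, by 0.78 ± 0.13. Gad2, the second GABA-making enzyme, differed by -0.06 ± 0.10 and did not pass.

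In insulin and IGF signalling, 33 genes were tested, and 7 fell, 2 rose and 24 did not pass, with a median of -0.15. The 9 called stand against 22.1% called over all genes, and 4 were called with the acinar level as covariate. Besides Irs2, the regulatory PI3 kinase subunit Pik3r3 fell by 0.63 ± 0.09. Igf1, a ligand of the pathway, rose by 1.26 ± 0.19, and its values were 6.50 and 5.78 in treated and 6.44 and 6.45 in untreated Irs2-/- islets, against 4.75 and 4.88 in treated and 5.58 and 4.93 in untreated WT islets. The genotypes did not overlap, with 3 WT arrays under 5.27. Irs1, the other main substrate, fell by 0.52 ± 0.14 (limma adjusted p = 0.0328), and the insulin receptor Insr by 0.39 ± 0.09 (limma adjusted p = 0.0237). The Irs1 call was lost without any 1 of 6 arrays and the Insr call without any 1 of 5, and other probe sets of Insr gave -0.19 and 0.09. Igf1r, the IGF-1 receptor, differed by 0.27 ± 0.14 (limma adjusted p = 0.224), Akt1 by -0.23 ± 0.09 and Akt2 by -0.08 ± 0.08, and none of these passed. The count of 9 was 4, 4 and 3 without WT untreated replicate 1 and WT tungstate replicates 1 and 2, and 5 without Irs2-/- untreated replicate 1 or tungstate replicate 1.

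A list of ERK feedback genes, which are transcribed when ERK is active and some of which restrain it, had 8 of 14 members that rose. None fell, the median was 0.58, and 5 of the 8 did not overlap. Over all genes tested, 10.9% rose and 11.2% fell. Dusp6, an ERK phosphatase, read 9.78 and 9.20 in treated and 10.50 and 10.59 in untreated Irs2-/- islets, against 8.02 and 7.70 in treated and 8.34 and 8.26 in untreated WT islets. The genotypes were 0.86 apart at their nearest, and Dusp6 rose by 1.93 ± 0.14 (SE, limma adjusted p = 0.000446). Dusp4, another MAP kinase phosphatase, rose by 1.30 ± 0.16. Etv5, an ETS factor downstream of ERK, rose by 0.69 ± 0.11, and its call was lost when its 3 probe sets were averaged (0.34, limma adjusted p = 0.151). The ERK inhibitors Spry4 and Spred3 rose by 0.48 ± 0.08 and 0.65 ± 0.13, and the 6 others, which include Egr1 at -0.17 ± 0.51, did not pass. Other Spry4 probe sets, with lower means, gave 0.01, 0.23 and 0.23. Without both untreated replicate 1 arrays, 4 of the 14 were called.

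**Figure D2:**
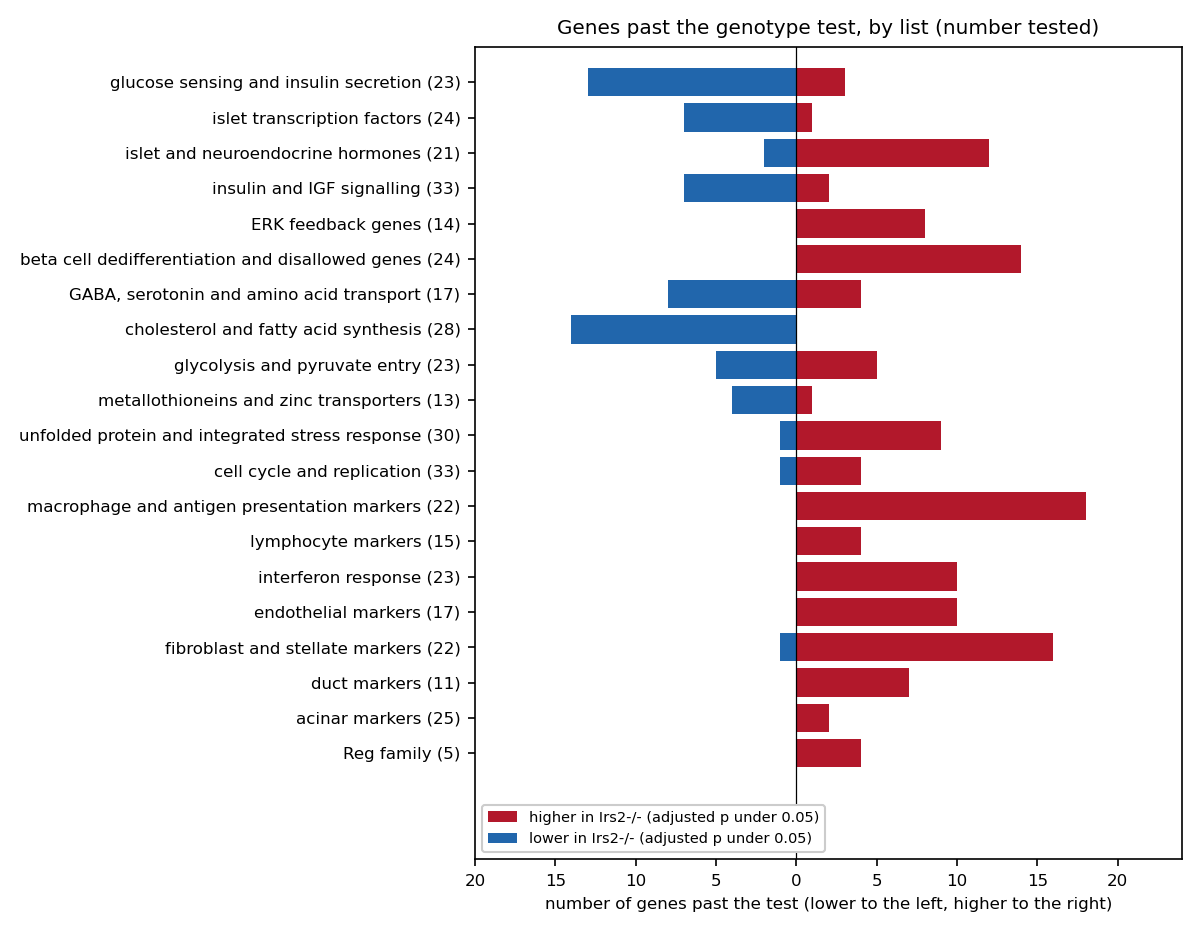
Number of genes past the limma test (adjusted p under 0.05, horizontal axis) in each gene list, with genes higher in Irs2-/- to the right and genes lower in Irs2-/- to the left, and the number tested in parentheses. Secretion, transcription factor and lipid synthesis lists extend mostly to the left, and hormone, macrophage and fibroblast lists to the right. Over all 13369 tested genes, 10.9% were higher and 11.2% lower in Irs2-/-.

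Of 24 tested genes on a list of dedifferentiation markers and genes normally kept off in beta cells, 14 rose and none fell, with a median of 0.83. Of the 14, 7 did not overlap, and over all genes tested 10.9% rose and 11.2% fell. Aldh1a3, a retinaldehyde dehydrogenase known to mark dedifferentiated beta cells, read 8.73 and 7.21 in treated and 9.10 and 8.15 in untreated Irs2-/- islets, against 5.30 and 6.45 in treated and 5.57 and 5.79 in untreated WT islets. The lowest Irs2-/- array stayed 0.76 above the highest WT array, and the difference was 2.52 ± 0.39 (SE, limma adjusted p = 0.00488). Other Aldh1a3 probe sets gave smaller rises of 1.13 and 1.06, the first with a mean of 6.95 against 7.04 for the chosen one. Cd81, a tetraspanin, rose by 0.83 ± 0.12. The lactate dehydrogenase Ldha (1.45 ± 0.28) and the ornithine aminotransferase Oat (1.49 ± 0.21) rose with overlapping groups. The progenitor factor Neurog3 differed by -0.03 ± 0.25 and Sox9 by 0.07 ± 0.11, and neither passed. Several members, such as Cxcl12 (2.19 ± 0.38) and Igfbp4 (1.93 ± 0.48), are also expressed by stromal cells. Cxcl12 and Igfbp4 overlapped between genotypes, and the Igfbp4 call was lost without any 1 of 4 arrays. The mean level of 22 fibroblast markers was 7.91 to 8.67 in Irs2-/- and 6.86 to 8.24 in WT islets, and its part in this list was not tested.

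Of 28 tested genes of cholesterol and fatty acid synthesis, 14 fell, none rose and 14 did not pass, with a median of -0.34. In the whole set of tested genes, 11.2% fell and 10.9% rose. Scd2, a fatty acid desaturase, read 9.99 and 9.91 in treated and 9.38 and 9.43 in untreated Irs2-/- islets, against 10.75 and 10.59 in treated and 10.99 and 10.98 in untreated WT islets. The genotypes lay 0.60 apart, and Scd2 fell by 1.15 ± 0.08 (SE, limma adjusted p = 0.000384). Acly, which makes cytosolic acetyl-CoA, fell by 0.63 ± 0.08, Elovl6, a fatty acid elongase, by 0.79 ± 0.10, and Insig1, a sterol-regulated brake on SREBP, by 0.89 ± 0.13. In the sterol pathway Msmo1 fell by 0.68 ± 0.10 and Idi1 by 0.62 ± 0.10. The count of 14 was 8 without either untreated WT array, 7 and 8 without WT tungstate replicates 1 and 2, 9 without Irs2-/- untreated replicate 1, and 7 with the acinar level as covariate.

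Glycolysis and pyruvate entry gave 5 genes that rose and 5 that fell among 23 tested, with a median of 0.02. In the whole set of tested genes, 10.9% rose and 11.2% fell. Pfkfb3, which makes the activator of phosphofructokinase, rose by 1.39 ± 0.18, with 5.79 and 5.64 in treated and 7.74 and 7.13 in untreated Irs2-/- islets, against 5.12 and 5.13 in treated and 5.60 and 4.90 in untreated WT islets. The treated Irs2-/- arrays were close to the highest WT array, with a gap of 0.04. Pdk1, a kinase that turns off pyruvate dehydrogenase, rose by 0.76 ± 0.10. Gpd2, the mitochondrial enzyme of the glycerol phosphate shuttle, fell by 0.90 ± 0.10. Pkm, the pyruvate kinase of most tissues, fell by 0.63 ± 0.11, and its call was lost with the acinar level as covariate. Without both untreated replicate 1 arrays, 5 genes of the list were called instead of 10.

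The metallothioneins Mt1 and Mt2, which bind zinc and are widely expressed, fell in Irs2-/- islets. Mt1 read 11.96 and 12.03 in treated and 11.36 and 11.44 in untreated Irs2-/- islets, against 12.43 and 12.88 in treated and 12.96 and 12.43 in untreated WT islets, and fell by 0.98 ± 0.14 (SE, limma adjusted p = 0.00429). Mt2 fell by 1.10 ± 0.18. Both were separated between genotypes, with untreated Irs2-/- islets lowest. Of 13 tested metallothioneins and zinc transporters, 4 fell, 1 rose and 8 did not pass, with a median of -0.07. By comparison, 11.2% of all genes tested fell and 10.9% rose. The member that rose was Mt3, the metallothionein best known in brain, by 0.41 ± 0.10 (SE, limma adjusted p = 0.0275), and its call was lost without any 1 of 5 arrays, in the additive model and with the acinar level as covariate. The count of 5 was 3 without any 1 of the WT arrays except untreated replicate 2, 3 without Irs2-/- untreated replicate 2 or tungstate replicate 1, and 3 with the acinar level as covariate.

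In the unfolded protein and integrated stress response, 9 of 30 genes rose, 1 fell and 20 did not pass, with a median of 0.16. The 10 called stand against 22.1% called over all genes, where 10.9% rose and 11.2% fell. Creld2, a secreted ER stress protein, read 11.79 and 11.36 in treated and 11.76 and 11.68 in untreated Irs2-/- islets, against 10.23 and 10.69 in treated and 10.13 and 10.68 in untreated WT islets. It rose by 1.22 ± 0.17 without overlap (SE, limma adjusted p = 0.00339). Edem1 and Edem2, which direct misfolded glycoproteins to degradation, rose by 1.13 ± 0.12 and 1.09 ± 0.17, and Sdf2l1, an ER chaperone component, by 0.83 ± 0.16. A second Edem1 probe set, with a mean of 9.38 over all arrays, differed by only 0.02. Asns, the asparagine synthetase induced by ATF4, fell by 0.52 ± 0.09. The chaperone Hspa5 (0.22 ± 0.16) and the stress factor Ddit3 (-0.22 ± 0.25) did not pass. The count of 10 was 5 and 6 without WT untreated replicate 1 and WT tungstate replicate 2, 6 without both untreated replicate 1 arrays, and 4 with the acinar level as covariate.

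Of 22 tested macrophage and antigen presentation markers, 18 rose and none fell, against 10.9% and 11.2% of all genes tested. The list had a median of 0.82, with 0.29 in treated and 1.42 in untreated mice. C1qc, a subunit of complement C1q made by macrophages, read 7.14 and 6.95 in treated and 8.18 and 8.47 in untreated Irs2-/- islets, against 6.71 and 6.69 in treated and 6.70 and 6.74 in untreated WT islets. The WT arrays were level and the treated Irs2-/- arrays were slightly above them, for a difference of 0.98 ± 0.09 (SE, limma adjusted p = 0.00113). Mpeg1, the pore-forming perforin-2, and Aif1, the IBA1 protein of macrophages, rose by 0.87 ± 0.08 and 1.06 ± 0.10. Lyz2, the macrophage lysozyme, rose by 2.03 ± 0.32 with overlapping groups, and 10 of the 18 overlapped. With genotype and treatment as plain additive factors, 10 of the list were called.

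Lymphocyte markers were uneven within the genotypes. All 15 tested members had a higher mean in Irs2-/- islets, and the median was 1.38. Of these, 4 passed, and all 4 overlapped between genotypes, while 22.1% of all genes tested passed and 10.9% rose. Cd3d, a chain of the T cell receptor complex, read 5.51 and 6.00 in treated and 8.01 and 6.97 in untreated Irs2-/- islets, against 5.36 and 5.10 in treated and 5.82 and 4.98 in untreated WT islets. Untreated Irs2-/- islets were clearly highest and treated ones overlapped the WT range, with a difference of 1.30 ± 0.27 (SE, limma adjusted p = 0.0131), and the call was lost without WT tungstate replicate 2. Ms4a1, the B cell antigen CD20, read 5.85 and 7.89 in treated and 10.19 and 8.93 in untreated Irs2-/- islets, against 7.48 and 3.95 in treated and 8.54 and 4.55 in untreated WT islets, and did not pass. The count of 4 was 8 without WT untreated replicate 1, 2 without WT untreated replicate 2, WT tungstate replicate 1 or Irs2-/- tungstate replicate 2, and 1 without WT tungstate replicate 2.

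Interferon response genes rose for 10 of 23 tested, and none fell, with a median of 0.65. Of the 10, 4 did not overlap, and over all genes tested 10.9% rose and 11.2% fell. Cxcl9, a chemokine induced by interferon gamma, read 4.57 and 5.41 in treated and 8.49 and 8.49 in untreated Irs2-/- islets, against 4.81 and 4.45 in treated and 4.97 and 4.29 in untreated WT islets. Only the untreated Irs2-/- arrays stood apart, and its average difference of 2.11 ± 0.21 (SE, limma adjusted p = 0.00133) comes with overlapping genotypes and is not exact, since all WT values lie under 5.27. Iigp1, an interferon-induced GTPase, rose by 1.47 ± 0.23 and Gbp3 by 0.99 ± 0.18, both without overlap. The count of 10 was 6 without WT untreated replicate 2 or either treated WT array. Lymphocyte marker levels were 6.15 to 8.18 in Irs2-/- and 5.30 to 6.74 in WT islets, highest in untreated Irs2-/- islets, and their part in this list was not tested.

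Of 33 tested cell cycle genes, 4 rose, 1 fell and 28 did not pass over both treatments. Over all genes tested, 10.9% rose and 11.2% fell. The median of the list was -0.05 in treated and 0.47 in untreated mice. Ccnd2, the cyclin D2 of beta cells, read 12.64 and 12.66 in treated and 12.24 and 12.06 in untreated Irs2-/- islets, against 13.06 and 13.03 in treated and 13.06 and 12.97 in untreated WT islets. It fell by 0.63 ± 0.08 without overlap (SE, limma adjusted p = 0.00259), and all 7 of its probe sets were lower, by -1.01 to -0.58. Rrm2, a subunit of ribonucleotide reductase, rose by 1.23 ± 0.17, and Mki67, the proliferation marker Ki-67, differed by 0.68 ± 0.31 and did not pass. The count of 5 was 16 without Irs2-/- untreated replicate 2, 3 without any 1 WT array except untreated replicate 1, and 2 in the additive model. The part of the lymphocyte and macrophage levels, highest in untreated Irs2-/- islets, was not tested.

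**Figure D3:**
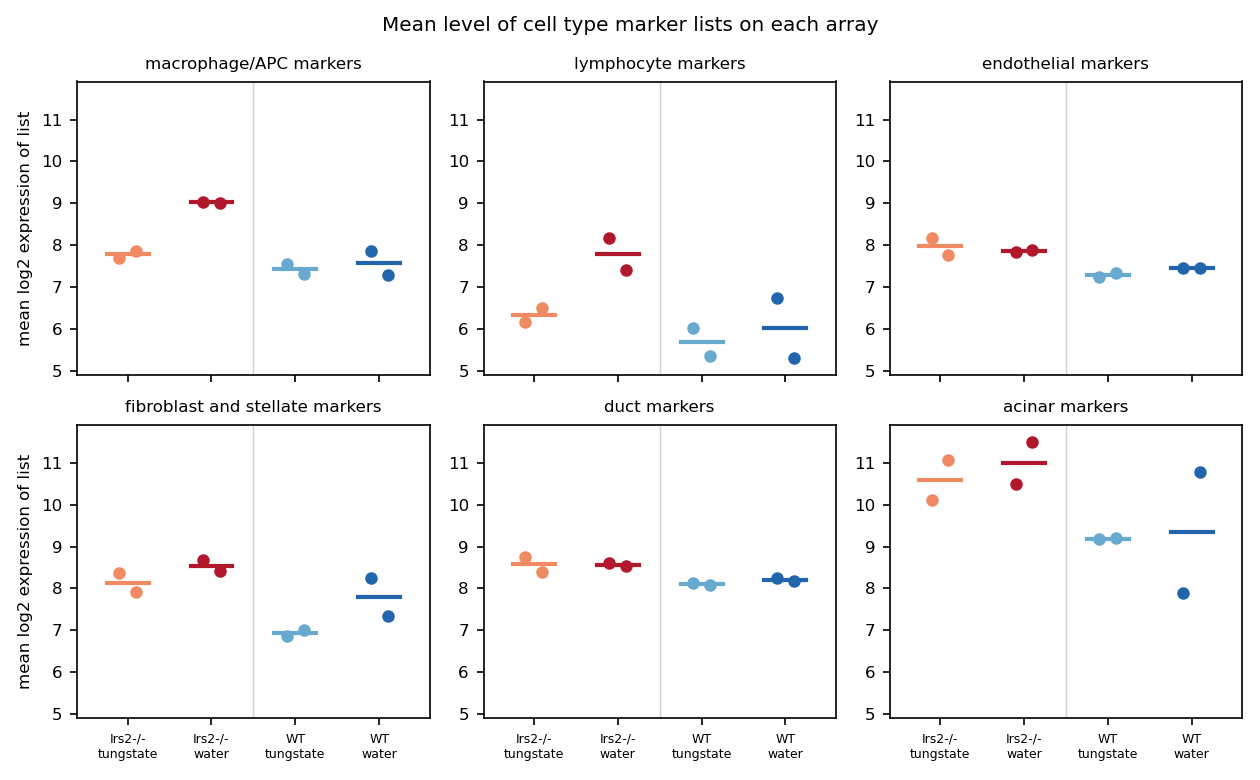
Mean log2 expression of 6 lists of cell type markers (vertical axis) on each array, with Irs2-/- groups left of WT groups, points for single arrays and short lines for group means of 2 arrays. Endothelial and duct levels are separated by genotype, macrophage and lymphocyte levels are highest in untreated Irs2-/- islets, and the acinar level spans 7.89 to 10.78 in WT islets.

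Vascular and stromal markers were higher under both treatments. Of 17 tested endothelial markers, 10 rose and none fell, with medians of 0.57 in treated and 0.37 in untreated mice, and 9 did not overlap. Among all genes tested, 10.9% rose, 7.31% without overlap, and 11.2% fell. Vwf, von Willebrand factor, read 7.41 and 6.45 in treated and 5.93 and 6.52 in untreated Irs2-/- islets, against 4.43 and 4.42 in treated and 5.28 and 4.81 in untreated WT islets. It rose by 1.84 ± 0.23, with 3 WT arrays under 5.27, and Plvap, a protein of fenestrated capillaries, rose by 0.64 ± 0.10 and Ramp2, part of the adrenomedullin receptor, by 1.32 ± 0.14. The VEGF receptors Kdr and Flt1 did not pass, at 0.31 ± 0.11 and 0.26 ± 0.10. Of 22 tested fibroblast and stellate markers, 16 rose and 1 fell, with a median of 1.03, and 6 that rose did not overlap. Sparc, a matrix glycoprotein, rose by 0.87 ± 0.09 without overlap, whereas Col3a1 (1.97 ± 0.30) overlapped, in that WT untreated replicate 1 read 10.04 and the other WT arrays 7.08 to 8.55. Col6a3, a collagen VI chain, fell by 0.98 ± 0.16 while the other chains Col6a1 and Col6a2 rose by 1.15 ± 0.26 and 1.07 ± 0.21. Endothelial counts were 6 without any 1 of WT untreated replicate 1, untreated replicate 2 or tungstate replicate 1, and fibroblast counts were 10 and 11 instead of 17 without WT tungstate replicates 1 and 2.

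Of 11 tested duct markers, 7 rose and none fell, with a median of 0.42. The shares over all genes tested were 10.9% that rose and 11.2% that fell. Anxa2, a membrane-binding annexin, read 9.62 and 9.05 in treated and 9.64 and 9.36 in untreated Irs2-/- islets, against 7.90 and 8.20 in treated and 8.75 and 8.12 in untreated WT islets, and rose by 1.18 ± 0.18. Its groups did not overlap. Epcam, an epithelial adhesion protein, rose by 0.47 ± 0.09, and Sox9 did not pass at 0.07 ± 0.11. All 25 tested acinar markers had a higher mean in Irs2-/- islets, with a median of 1.46, but 2 passed, Prss3 (4.65 ± 1.09, overlapping) and the acinar factor Rbpjl (0.57 ± 0.11), whose call was lost with its probe sets averaged. The acinar count was 22 of 25 without WT untreated replicate 2, 5 without untreated replicate 1, 0 without WT tungstate replicate 1, and 1 without WT tungstate replicate 2 or Irs2-/- untreated replicate 2. The duct count was 3 or 4 without any 1 of the WT arrays and 4 without Irs2-/- untreated replicate 2.

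The regenerating-islet family of secreted lectins, which acinar cells produce abundantly, had 4 of 5 members that rose, against 10.9% of all genes tested. Reg3b read 11.62 and 10.58 in treated and 8.78 and 11.39 in untreated Irs2-/- islets, against 5.62 and 6.12 in treated and 3.86 and 8.62 in untreated WT islets. The lowest Irs2-/- array was only 0.16 above the highest WT array, and the difference was 4.54 ± 0.99 (SE, limma adjusted p = 0.0163). Reg2 read 11.70 and 10.93 in treated and 10.64 and 11.96 in untreated Irs2-/- islets, against 7.38 and 7.60 in treated and 5.31 and 10.30 in untreated WT islets. The difference for Reg2 was 3.66 ± 0.93 (limma adjusted p = 0.0281), and in both genes untreated WT replicate 2 was the WT array nearest Irs2-/-, as it was for the acinar markers. With the acinar level as covariate, none of the family was called, with 2.25 for Reg3b and 1.43 for Reg2, and none was called without either treated WT array. None was called with trended and robust variance moderation either. The count was 2 without WT untreated replicate 1 or Irs2-/- tungstate replicate 1, and 1 without Irs2-/- untreated replicate 2. The acinar level itself tended to be higher in Irs2-/- (10.11 to 11.51) than in WT islets (7.89 to 10.78). The covariate therefore cannot separate it from genotype, and the part of acinar RNA in these rises was not tested.

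Genotype differences tended to be smaller in treated than in untreated mice. Over all tested genes, the absolute difference was smaller under tungstate for 67.7%, with medians of 0.14 in treated and 0.22 in untreated mice. Among called genes without overlap, the median was 0.49 in treated and 0.68 in untreated mice for higher genes and -0.38 and -0.59 for lower genes. The size was smaller under tungstate for 757 of 977 higher genes (77.5%) and 1142 of 1306 lower genes (87.4%). The Irs2-/- array nearest WT was treated replicate 2 for 678 of the higher (69.4%) and 782 of the lower genes (59.9%). The 2 differences rest on different arrays, and since the genes were chosen on their average, these shares are a description.

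**Figure D4:**
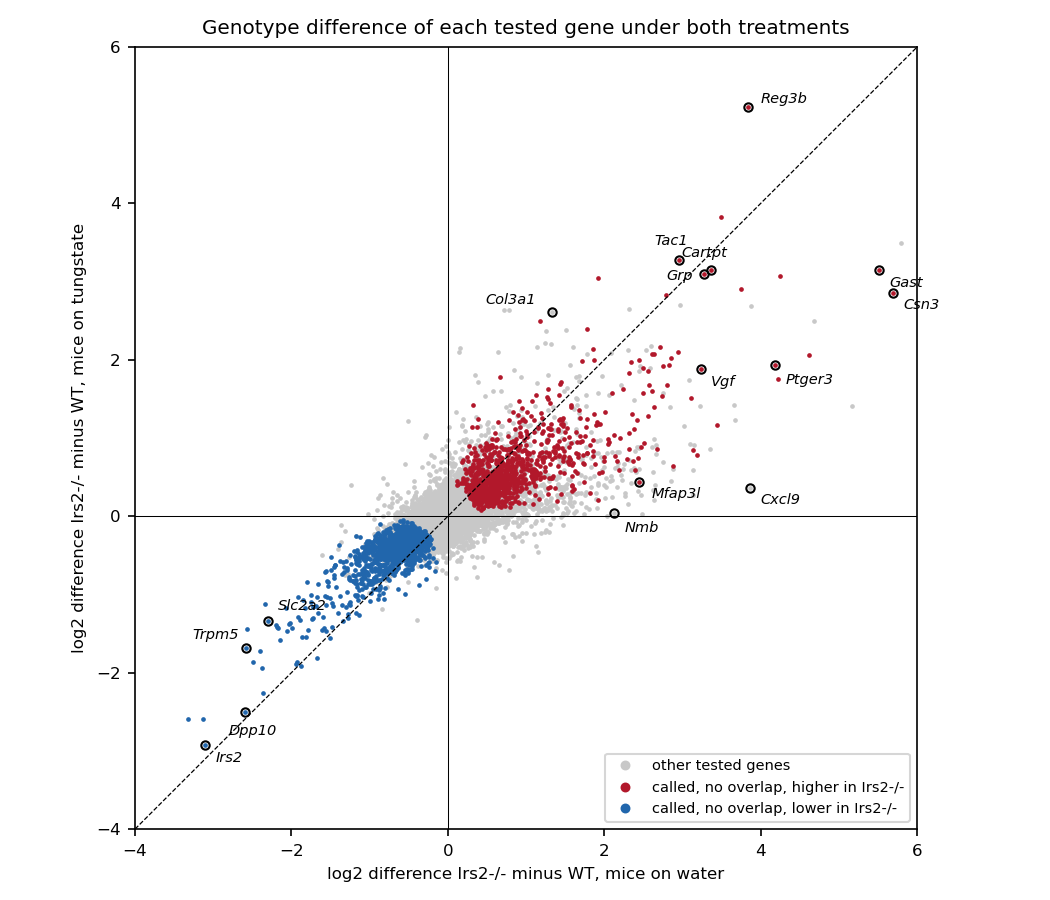
Log2 difference of Irs2-/- minus WT for each of 13369 tested genes in mice on tungstate (vertical axis) and on water (horizontal axis), with called genes without overlap in red (higher) and blue (lower), other genes in grey and a dashed line of equal differences. Gast, Csn3, Ptger3, Vgf, Mfap3l, Nmb and Cxcl9 lie below the line on the right, while Irs2, Dpp10, Tac1, Grp and Cartpt lie near it.

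A test of whether the difference itself depended on treatment called 3 of 13369 genes (0.0224%), all with a smaller difference under tungstate, while 862 had an unadjusted p under 0.05. They were Gast, Mfap3l, which encodes a membrane protein of the microfibril-associated family, and Nmb, the precursor of neuromedin B. Nmb read 5.71 and 5.75 in treated and 7.54 and 7.75 in untreated Irs2-/- islets, against 5.74 and 5.64 in treated and 5.66 and 5.37 in untreated WT islets. Treated Irs2-/- islets lay within or beside the WT range, and untreated ones stood apart. No gene was called when any 1 WT array or Irs2-/- untreated replicate 2 was left out, and 10, 12 and 5 were called without Irs2-/- untreated replicate 1, tungstate replicate 1 and tungstate replicate 2. The median SE of this term was 0.20, against 0.10 for the genotype term, so a gene outside these 3 is not shown to differ equally under both treatments.

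Some genotype differences had values close to each other under both treatments. Irs2 differed by -2.93 in treated and -3.10 in untreated mice, Dpp10 by -2.50 and -2.59, Pcdh15 by -1.92 and -1.88, and Cartpt by 3.15 and 3.36. In Irs2-/- islets all values of Irs2 and 3 of Pcdh15 lay under 5.27, and Dpp10 read 5.71 to 5.83. At such low levels an effect of treatment may not be measurable, so close values do not show equal differences. Tac1 differed by 3.28 in treated and 2.96 in untreated mice, and Grp by 3.10 and 3.28. For Slc2a2 the values were -1.33 and -2.30, for Trpm5 -1.68 and -2.58 and for Csn3 2.86 and 5.69, and none of these 3 passed the test of the dependence on treatment.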

How the data were processed

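RNA from 8 islet samples, 2 for each genotype and treatment, was measured on single-colour mouse arrays. The deposited table holds log2 expression values, made by the authors with RMA in the affy package under R 2.7.0, per the submitters' processing notes, and no further normalisation was applied here. Of 45037 probe sets besides 64 controls, 34945 name 1 gene, 932 name several and 9160 name none in the platform annotation, and 34741 were matched by gene number to current RefSeq symbols. Each of 18193 genes was represented by its brightest probe set on average, and 4824 genes with a mean under the 40th percentile of all probe sets (log2 5.27) were left out. Precision is limited by the number of arrays, and the median SE of a genotype difference was 0.10.

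Tests were made with limma 3.58.1 in R 4.3.3, on a mean for each of the 4 groups with 4 residual and 3.89 prior degrees of freedom, and Benjamini-Hochberg adjustment over 13369 genes at 0.05. The genotype contrast was the mean of the 2 Irs2-/- groups minus the mean of the 2 WT groups, and the interaction was the difference in treated minus that in untreated mice. The code was tested on simulated data.

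The genes named were Irs2, the 15 higher and 15 lower called genes without overlap with the largest differences, up to 3 genes with the smallest p in each of 20 lists, a short list of islet and receptor genes, up to 5 interaction genes in each direction, and the genes at the edge of the no-overlap rule. Other list members were named after their values were seen. The comparison and its lists were chosen with earlier results of these data known. Of 501 list entries, 457 have a probe set. Alternatives changed the filter, model, variance moderation, scaling, probe set choice, threshold, acinar covariate and arrays used. The setting without both untreated replicate 1 arrays was added after seeing the data.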

Additional observations from a re-analysis of the deposited data

Results flagged for a closer look

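The genotype difference depended on treatment for 3 genes by limma's test of the difference between treated and untreated mice. For Gast, the gastrin gene, it was 3.15 in treated and 5.52 in untreated mice, which gives -2.37 ± 0.19 on the log2 scale (SE, adjusted p = 0.021). For Nmb, the neuromedin B precursor, it was 0.04 in treated and 2.13 in untreated mice, which gives -2.09 ± 0.20 (adjusted p = 0.0263). For Mfap3l, a membrane protein, it was 0.44 in treated and 2.45 in untreated mice, which gives -2.01 ± 0.18 (adjusted p = 0.0263). Mfap3l read 6.21 and 6.00 in treated and 8.09 and 8.01 in untreated Irs2-/- islets, against 5.60 and 5.73 in treated and 5.68 and 5.52 in untreated WT islets. The causes were not tested.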

How the results depend on the processing

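Without 1 array at a time, the genes called for genotype numbered 1389 to 3013 (2950 with all arrays), those called without overlap 1245 to 2757 (2283), and those called for the interaction 0 to 12 (3). Of the 1389, 1373 were among the 2950. With the acinar level as covariate, 1571 genes were called, 65.8% of them higher against 49.5% in the full set, and 1066 did not overlap. Without both untreated replicate 1 arrays the 3 counts were 1395, 1296 and 6. At an adjusted p under 0.1 the interaction called 13 genes, all negative. At 2-fold or more, 427 genes were called and 303 did not overlap, which follows from the stricter rule. Same-numbered deviations correlated at 0.19, 0.22 and 0.42 for 3 of the 6 pairs of groups and at -0.07 to 0.10 for the others, so the numbers were not taken to pair the samples. With the replicate number as a block 3154 genes were called, 8 of the acinar and 7 of the lymphocyte markers among them. Quantile normalisation called 1532 higher and 1354 lower genes, against 1459 and 1491 in the full set. Cell cycle genes gave 2 higher and 3 lower with probe sets averaged, against 4 and 1. No named gene reversed direction where it was called in the full set or in the alternative. Of 140 named genes that were called, 65 kept their call in every one of 21 settings that tested them. These settings include that of at least 2-fold, which drops smaller differences by rule, and 64 named genes lost their call there. The causes were not tested. With 2 arrays per group, levels near 5.27 and differences in cell make-up limit what can be read from these arrays.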
